A study of Homo sapiens with 6 samples.

Results

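The BH3-only genes BBC3, BMF, BCL2L11, PMAIP1, BID, BIK, HRK and BAD and the effector genes BAX and BAK1 make up the pro-apoptotic core of the BCL2 family, and their transcripts were followed in H69 cells. H69 is a human cell line that was grown in RPMI medium with serum. Cells received the histone deacetylase inhibitor trichostatin A (TSA) at 1 µM in 3 libraries, or its solvent DMSO (vehicle) in 3 libraries, and RNA was taken after 24 h. No genetic change or other agent is named for either group. The genes were chosen by symbol, and all 10 of 10 were found among the 31814 genes of the deposited table. Levels are in TPM, a unit that corrects for gene length and gives each gene as a share of the measured RNA, so that a smaller share, less RNA per cell and fewer cells with the transcript cannot be told apart in these bulk samples. Nothing in the labels ties the 3 libraries of a group to cultures of their own, and the p-values therefore cover the spread among these libraries, possibly a technical one. The treated samples carry the tag HSA for their treatment, but TSA in the design text, and are called TSA here.

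Cells commit to the mitochondrial pathway of apoptosis when BAX and BAK1 open the outer mitochondrial membrane and release cytochrome c. Anti-apoptotic relatives such as BCL2, BCL2L1 and MCL1 hold BAX and BAK1 in check. BH3-only proteins carry a short helix, the BH3 domain, that fits into a groove of these relatives. Some of them, namely BIM (encoded by BCL2L11), PUMA (BBC3) and the cleaved form of BID, can also activate BAX and BAK1 directly, while BMF, BAD, BIK, HRK and NOXA (PMAIP1) act mainly by occupying anti-apoptotic partners. Many of these genes are controlled by transcription in response to stress, while BAD and BID are switched on mainly by changes to the protein, and the gene level measured here does not separate splice forms such as those of BCL2L11.

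The starting regions of the genes that moved most are shown first, because these genes changed together or, in the case of BID, the opposite way. RefSeq promoter windows on GRCh38.p14, from 250 bases before to 50 bases after an annotated start, were found for 9 of the 10 genes, 15 windows in all, and BIK had none. The stretches below run 5′ to 3′ on the strand of the gene, come from the most upstream start listed, and leave out bases that GENCODE 29 places in an exon. They lie at chr19:47232767-47232917 (minus strand) for BBC3, chr15:40108893-40109129 (minus strand) for BMF, chr2:111120664-111120913 (plus strand) for BCL2L11 and chr22:17774771-17774915 (minus strand) for BID. Capitals mark the motif matches that are described next.
BBC3: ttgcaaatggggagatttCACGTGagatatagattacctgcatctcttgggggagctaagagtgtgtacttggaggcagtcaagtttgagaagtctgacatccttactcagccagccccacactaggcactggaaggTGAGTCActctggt
BMF: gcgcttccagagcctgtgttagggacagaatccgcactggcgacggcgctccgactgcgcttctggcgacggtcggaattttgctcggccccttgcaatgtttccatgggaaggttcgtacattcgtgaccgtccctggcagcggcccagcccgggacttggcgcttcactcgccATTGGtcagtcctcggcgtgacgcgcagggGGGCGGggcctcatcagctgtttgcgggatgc
BCL2L11: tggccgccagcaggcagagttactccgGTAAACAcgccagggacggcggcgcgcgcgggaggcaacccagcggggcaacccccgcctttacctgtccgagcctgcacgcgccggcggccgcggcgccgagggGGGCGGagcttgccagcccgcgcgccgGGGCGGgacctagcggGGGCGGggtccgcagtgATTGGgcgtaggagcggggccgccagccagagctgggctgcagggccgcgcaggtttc
BID: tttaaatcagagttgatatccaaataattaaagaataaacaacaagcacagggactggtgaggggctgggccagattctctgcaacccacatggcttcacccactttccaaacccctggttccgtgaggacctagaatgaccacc

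Both strands were searched for the GC box GGGCGG, the CCAAT box, the E-box CACGTG, the forkhead motif GTAAACA, the AP-1 site TGAGTCA, the cyclic AMP element TGACGTCA, the CHOP-ATF4 element TGATGCAA, the E2F sites TTTGGCGC, TTTCGCGC, TTTCCCGC and TTTGCCGC, the TATA box TATAAA and the p53 response element with a spacer of 0 to 13 bases. No match in the printed stretches overlapped a match of another motif. The BCL2L11 stretch held GTAAACA, the letters bound by FOXO factors, as the only member window of the 15, against 3.42% of all 35116 RefSeq windows. It also held 3 GC boxes and a CCAAT box on the opposite strand. The BMF stretch held a GC box and a CCAAT box, and the BBC3 stretch held an E-box and an AP-1 site. The printed BID stretch held none of these motifs, while the other 4 BID windows, which lie further downstream, held 2 to 4 GC boxes each. GC boxes stood in 12 of the 15 windows, against 45% of all windows, and E-boxes in 4 windows, of BAX, BBC3 and BID, against 7.26%. The 12 windows with a GC box had a GC content of 58.7% to 78%, against a median of 58.7% over all windows. The part of GC content in this count was not tested. Several windows of BID overlap each other, as do those of BAD. The same site can thus count more than once, and the 15 windows are not independent. The BAX window alone held 4 E-boxes. None of the 15 windows held an E2F, cyclic AMP, CHOP-ATF4, TATA or p53 match, and 3.31%, 1.85%, 0.866%, 11.5% and 0.0285% of all windows did. Only exact matches were counted, also for the p53 element, so a site with a mismatch or outside the windows would have been missed. A match describes the letters of the reference, and binding was not measured.

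The comparison asked which of these transcripts changed after 24 h with TSA. BBC3, BMF and BCL2L11 rose between 3.40-fold and 7.95-fold in mean TPM, BIK rose 2.32-fold, and PMAIP1, BAD, HRK and BAK1 rose between 1.5-fold and 1.77-fold. BID went the other way and was 12.5-fold lower in TSA than in vehicle. BAX was 1.33-fold higher in mean TPM and did not pass the test. All 10 genes passed the filter on low values, which asked for 1 TPM in 3 or more libraries, and all 10 had a vehicle mean above 1 TPM. At an adjusted p under 0.05 in limma, 8 were higher and 1 lower, against 28.0% and 34.2% of the 17596 genes tested. In 8 genes the lowest TSA library was above the highest vehicle library, and in BID the highest TSA library was below the lowest vehicle library, a separation that 30.8% and 36.2% of all tested genes showed. The count of higher genes was 5 when vehicle library 1, TSA library 2 or TSA library 3 was left out. The authors' deposited table gave an FDR under 0.05 for 9 of the 10 genes, all but BAX (FDR 0.0594), against 41.3% of its genes.

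**Figure D1:**
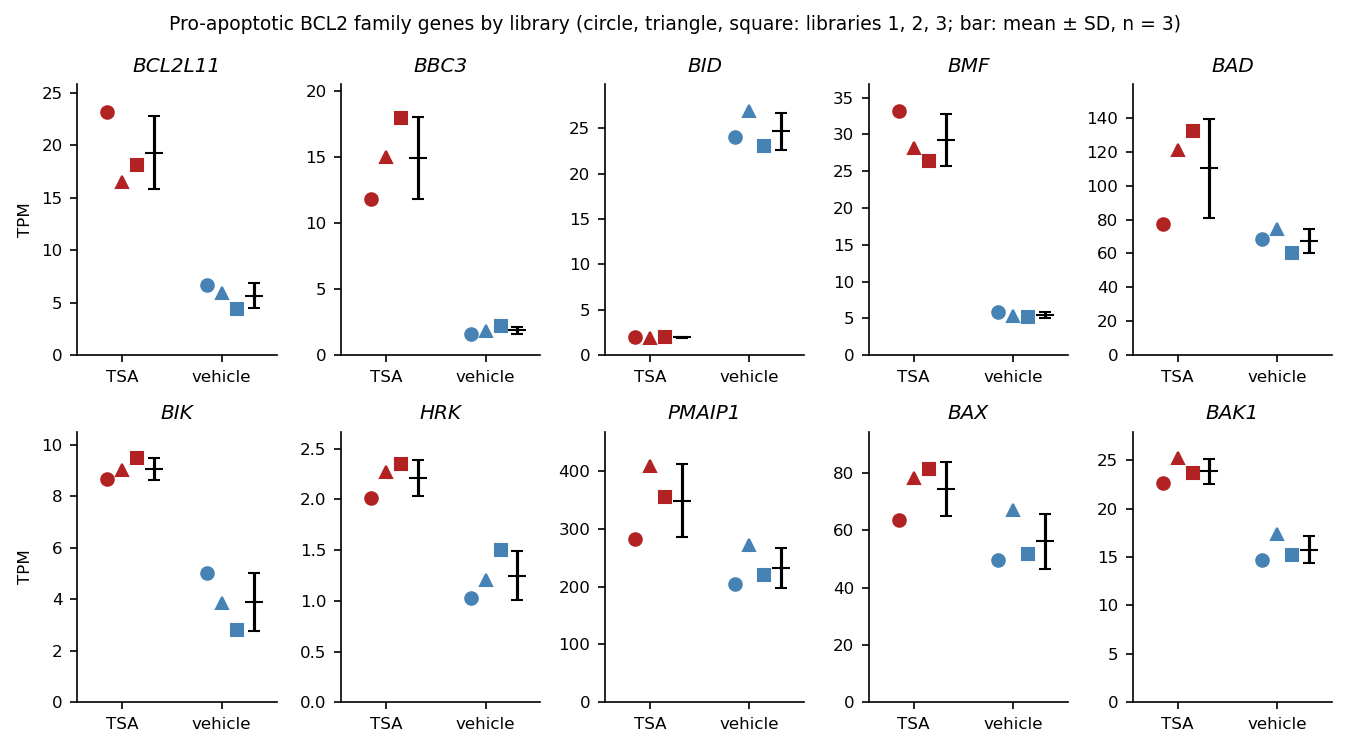
TPM of each gene in each library, with TSA left of vehicle. Points are libraries (circle 1, triangle 2, square 3) and the bar is the mean ± SD (n = 3 each). The groups do not overlap in any panel but that of BAX, where TSA library 1 (63.7 TPM) lies below vehicle library 2 (67.2 TPM), and BID is the only panel with TSA at the bottom.

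Sequencing depth was even, and differences in RNA makeup between libraries were larger. Whole reads recovered from the TPM values came to between 23009041 and 24803310 in TSA libraries, and between 22533307 and 26148651 in vehicle libraries. For the 10 genes the gene length implied by the recovered reads was 0.994 to 1.02 times the exon length in GENCODE 29, so that their read numbers are given below as reads. Transcripts of the mitochondrial genome made up 16.9%, 7.65% and 10.4% of TPM in TSA libraries 1, 2 and 3, against 12.4%, 4.97% and 10.1% in vehicle libraries 1, 2 and 3. Because other human lines share the name H69, markers of several cell types were read. All 9 of 9 neuroendocrine markers were above the filter, with a summed level of 1453 to 1523 TPM in TSA and 2420 to 2886 TPM in vehicle. Of 8 bile duct markers 6 were above it, with CFTR at 0.129 TPM or less in every library. The sum of the list was 345 to 460 TPM in TSA and 769 to 976 TPM in vehicle, with EPCAM, KRT19 and KRT7 lower and SOX9, SLC4A2 and SSTR2 higher in TSA. Markers of blood, stromal and endothelial cells summed to 5.0 to 6.91 TPM in TSA and 1.19 to 1.79 TPM in vehicle. The higher sum was nearly all COL1A1, a collagen gene, at 5.44 TPM in TSA and 0.510 TPM in vehicle on average, while PTPRC, which marks white blood cells, averaged 0.0432 TPM in TSA and 0.480 TPM in vehicle, and VWF, which marks endothelial cells, 0.124 TPM in TSA and 0.495 TPM in vehicle. The part of these shifts in the results below was not tested.

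Among the direct activators, BBC3 (ENSG00000105327.11), which encodes PUMA, stood at 11.8, 15 and 18 TPM in TSA libraries 1, 2 and 3, against 1.60, 1.85 and 2.18 TPM in vehicle libraries 1, 2 and 3. These values rest on 273, 355 and 405 reads in TSA and on 34, 37 and 49 reads in vehicle. Every TSA library was at least 5 times the highest vehicle library. The log2 fold change on log2(TPM + 1) was 2.46 with a standard error of 0.19 (adjusted p 6.4e-05, limma), and 97.4% of all tested genes had a lower one. The pseudocount shrinks the change of a gene at this level, and the authors' deposited table gave a log2 fold change of 3.07.

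BCL2L11 (ENSG00000153094.17), which encodes BIM, was at 23.2, 16.5 and 18.2 TPM in TSA, against 6.72, 5.93 and 4.39 TPM in vehicle. The lowest TSA value was more than 2 times the highest vehicle value, and in each group library 1 was the highest. The log2 fold change was 1.61 with a standard error of 0.19 (adjusted p 0.00042, limma). A long non-coding gene on the other strand, MIR4435-2HG in GENCODE 29, overlaps BCL2L11, but its own values were 0.275, 0.316 and 0.233 TPM in TSA and at most 0.0562 TPM in vehicle.

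BID (ENSG00000015475.14), whose protein is cut by caspase-8 and then carries the death receptor signal to mitochondria, was at 2.03, 1.88 and 2.01 TPM in TSA, against 24.0, 27.0 and 23.1 TPM in vehicle. The read numbers were 65, 62 and 63 in TSA and 708, 748 and 721 in vehicle. The log2 fold change was −3.11 with a standard error of 0.13 (adjusted p 8.8e-06, limma), and 1.01% of the tested genes had a more negative one. Among all tested genes, its change ranked 398 by size in either direction. The spread between libraries was small in both groups, with a coefficient of variation of 4.04% in TSA and 8.26% in vehicle. Because BCL2L11 and BID moved in opposite directions, the ratio of their TPM values was 11.5, 8.78 and 9.01 in TSA libraries and 0.280, 0.220 and 0.191 in vehicle libraries. By mean TPM, BID was the least abundant of the 10 transcripts in TSA and the fourth most abundant in vehicle. In TSA library 1 it was slightly above HRK, at 2.03 against 2.01 TPM.

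**Figure D2:**
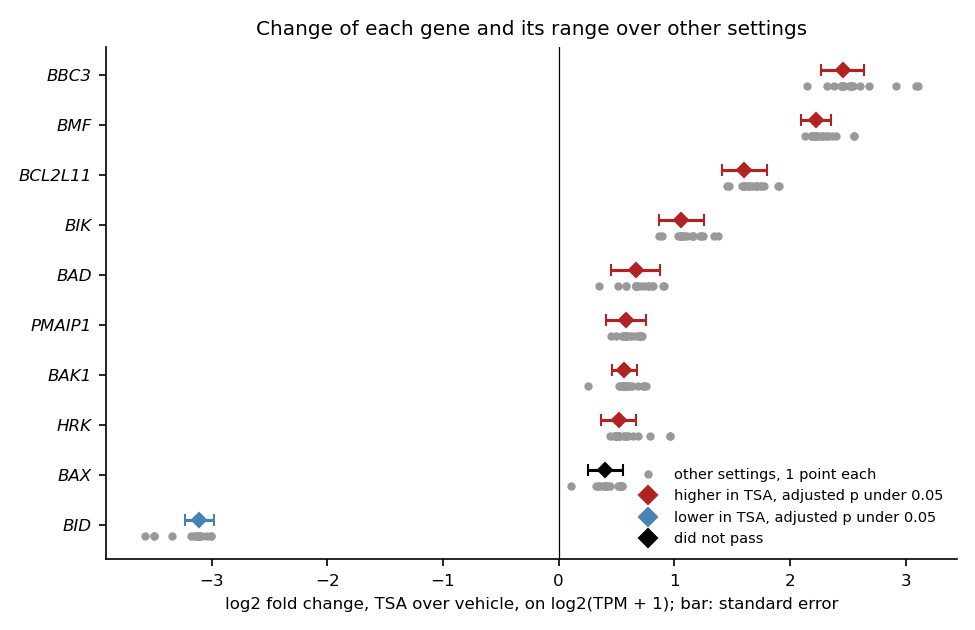
Log2 fold change of each gene, TSA over vehicle on log2(TPM + 1), with its standard error as the bar. Grey points are the values under other scalings, filters, models and left-out libraries. BBC3, BMF, BCL2L11 and BIK stay to the right of every other gene in the standard setting, the points of BID run from −3.58 to −3.01, and the points of BAX reach down to 0.11.

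Of the BH3-only proteins that act mainly on anti-apoptotic partners, BMF changed most. BMF (ENSG00000104081.9), which in its resting state is held at the cytoskeleton by a dynein light chain, was at 33.2, 28.1 and 26.4 TPM in TSA, against 5.88, 5.29 and 5.16 TPM in vehicle. The groups lay far apart, with 1019 to 1312 reads in TSA libraries and 181 to 214 reads in vehicle libraries. Its log2 fold change was 2.23 with a standard error of 0.13 (adjusted p 2.4e-05, limma). Its antisense gene, BMF-AS1 in GENCODE 29, was listed at 0 in 5 of the 6 libraries and at 0.306 TPM in TSA library 3.

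BIK (ENSG00000100290.2), a BH3-only protein found mainly at the endoplasmic reticulum, was at 8.67, 9.01 and 9.48 TPM in TSA, against 5.03, 3.84 and 2.82 TPM in vehicle. The TSA libraries were close together, with a coefficient of variation of 4.53%, and the vehicle libraries were spread, with 28.4%. The exon length of BIK is short, at 953 bases, and its values rest on 60, 64 and 64 reads in TSA and on 32, 23 and 19 reads in vehicle. The log2 fold change was 1.06 with a standard error of 0.19 (adjusted p 0.0029, limma).

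PMAIP1 (ENSG00000141682.11), which encodes NOXA, a partner of MCL1, was the most abundant of the 10 transcripts in every library. It was at 282, 409 and 354 TPM in TSA, against 204, 271 and 220 TPM in vehicle. The groups were separated by a narrow gap between TSA library 1 and vehicle library 2. The log2 fold change was 0.58 with a standard error of 0.17 (adjusted p 0.024, limma). The call ended when vehicle library 1 (adjusted p 0.080), vehicle library 3 (0.080), TSA library 2 (0.074) or TSA library 3 (0.075) was left out. PMAIP1 made up 53.6%, 57.9% and 53% of the summed TPM of the 10 genes in TSA libraries and 53.6%, 57.1% and 57.0% in vehicle libraries, so that its share lay in the same range in both groups.

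BAD (ENSG00000002330.9), a BH3-only protein that 14-3-3 proteins hold back once it is phosphorylated, was at 77.2, 121 and 132 TPM in TSA, against 68.4, 74.2 and 60.0 TPM in vehicle. TSA library 1 was close to the highest vehicle library, while the other TSA libraries were well above it, and TSA library 1 also had the highest mitochondrial share (16.9%). With mitochondrial genes removed before scaling, the log2 fold change was 0.71 (adjusted p 0.013), against 0.67 with a standard error of 0.21 as deposited (adjusted p 0.029, limma). It was 0.90 without TSA library 1. It moved to 0.35 (adjusted p 0.039) once the trends of each library with transcript length and GC content were removed, and the call ended without vehicle library 1, vehicle library 3, TSA library 2 or TSA library 3 (adjusted p 0.068, 0.099, 0.090 and 0.094) and with no filter on low values (adjusted p 0.055). The gene GPR137 overlaps BAD on the other strand and was also higher, at 30.5, 31.0 and 37.8 TPM in TSA and 24.1, 26.7 and 23.3 TPM in vehicle (adjusted p 0.023, limma). Whether strand was used in counting is not stated, so reads of this pair could not be told apart where they overlap.

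HRK (ENSG00000135116.5), a BH3-only gene best known from neurons, was the least abundant of the 10 in vehicle. It was at 2.01, 2.27 and 2.35 TPM in TSA, against 1.03, 1.21 and 1.5 TPM in vehicle, on 100 to 116 reads in TSA and 47 to 73 reads in vehicle. The groups did not overlap, and the log2 fold change was 0.52 with a standard error of 0.15 (adjusted p 0.022, limma). At this low level the pseudocount matters, and a fit of the recovered reads gave 0.96 (adjusted p 0.0044). The call ended in 7 of 19 other settings, with an adjusted p of up to 0.080, among them those without vehicle library 1, vehicle library 2, TSA library 2 or TSA library 3.

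Of the effectors, BAK1 passed the test and BAX did not. BAK1 (ENSG00000030110.8), which sits in the outer mitochondrial membrane, was at 22.7, 25.2 and 23.7 TPM in TSA, against 14.7, 17.3 and 15.2 TPM in vehicle, and the groups were well separated. Its log2 fold change was 0.57 with a standard error of 0.11 (adjusted p 0.0036, limma). With length and GC trends removed it was 0.25 (adjusted p 0.041). The gene GGNBP1 overlaps BAK1 on the other strand and was at no more than 0.736 TPM in TSA and listed at 0 in vehicle.

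BAX (ENSG00000087088.15), which moves from the cytosol to mitochondria when activated, was at 63.7, 78.3 and 81.4 TPM in TSA, against 49.7, 67.2 and 51.8 TPM in vehicle. TSA library 1 lay within the range of the vehicle libraries. The log2 fold change was 0.41 with a 95% interval of 0.040 to 0.77 before adjustment, and limma gave an unadjusted p of 0.035 and an adjusted p of 0.055. BAX passed in 8 of the 20 other settings, among them without vehicle library 2 (adjusted p 0.017), without TSA library 1 (0.023), without mitochondrial genes (0.016) and in the fit of recovered reads (0.025), while its log2 fold change was 0.11 (adjusted p 0.27) with length and GC trends removed. The ratio of BAX to BAK1 was 2.81, 3.11 and 3.44 in TSA libraries and 3.37, 3.87 and 3.41 in vehicle libraries, and these ranges overlap.

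The order of the transcripts changed in its lower part. PMAIP1, BAD and BAX were the highest in both groups, in that order. BAD was above BAX within every library, although their ranges over libraries overlapped in both groups. In TSA these 3 were followed by BMF, BAK1, BCL2L11, BBC3, BIK, HRK and BID, with overlapping ranges between BAK1 and BCL2L11, between BCL2L11 and BBC3, and between HRK and BID. In vehicle the same 3 were followed by BID, BAK1, BCL2L11, BMF, BIK, BBC3 and HRK, with overlapping ranges between BCL2L11 and BMF. BBC3 was thus the seventh in TSA and the ninth in vehicle.

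Summed over the 10 genes, the level was 527, 706 and 668 TPM in TSA libraries, against 381, 475 and 387 TPM in vehicle libraries. Most of the gap came from abundant genes, and the BH3-only genes other than PMAIP1 and BAD summed to 80.9, 72.8 and 76.4 TPM in TSA and 44.3, 45.1 and 39.1 TPM in vehicle. BID supplied 2.5%, 2.59% and 2.64% of this smaller sum in TSA libraries and 54.2%, 59.8% and 59.0% in vehicle libraries. Without PMAIP1 and BAD, the BH3-only transcripts were therefore mostly BMF and BCL2L11 in TSA and mostly BID in vehicle.

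Of 6 anti-apoptotic genes of the family, 4 were tested and all 4 were called lower, beside 34.2% of all tested genes. Their median log2 fold change was −1.54, against −0.095 over all tested genes. MCL1, the partner of NOXA, averaged 165 ± 24.8 TPM in TSA and 338 ± 26.0 TPM in vehicle (SD, n = 3 each). BCL2L2 averaged 29.2 ± 4.74 TPM in TSA and 71.0 ± 0.925 TPM in vehicle. BCL2 fell by 2.34 and BCL2L1, whose long splice form is BCL-xL, fell by 1.82 on the log2 scale. All 4 calls stood in each of the 20 other settings tried. BCL2A1 and BCL2L10 were below the filter, at 0.227 TPM or less in every library. The sum over the 6 genes was 267, 219 and 211 TPM in TSA libraries and 569, 532 and 562 TPM in vehicle libraries. The 10 pro-apoptotic genes together thus stood at 1.97, 3.23 and 3.18 times the anti-apoptotic sum in TSA libraries and at 0.670, 0.893 and 0.688 times in vehicle libraries. These are ratios of transcripts and say nothing of protein levels.

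**Figure D3:**
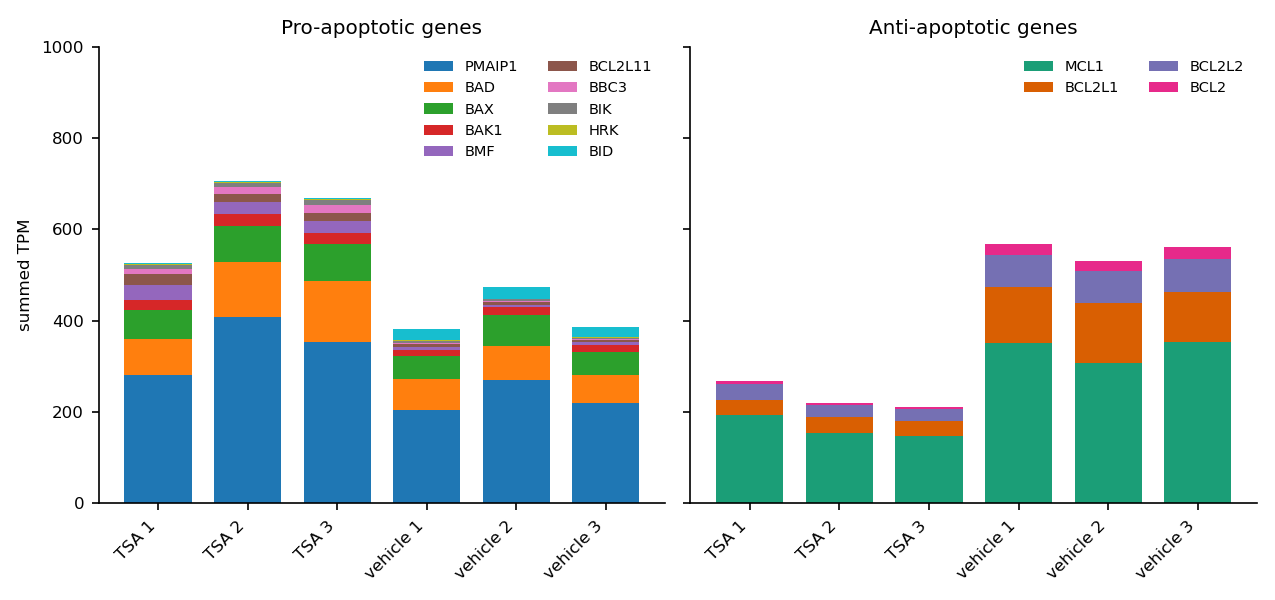
Summed TPM of the pro-apoptotic genes (left) and the anti-apoptotic genes (right), stacked by gene in each library, with TSA left of vehicle. The pro-apoptotic sum is 527 to 706 TPM in TSA and 381 to 475 TPM in vehicle, and the anti-apoptotic sum is 211 to 267 TPM in TSA and 532 to 569 TPM in vehicle.

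Of the more distant relatives and other proteins with a BH3 motif, 3 of 7 tested genes were higher and 2 lower, beside 28.0% and 34.2% of all tested genes. Their median log2 fold change was 0.060, and −0.024 without TSA library 1. BCL2L12 averaged 35.4 ± 3.58 TPM in TSA and 3.04 ± 0.893 TPM in vehicle (SD, n = 3 each). BNIP3L, a receptor for the removal of mitochondria by autophagy, averaged 305 ± 46.8 TPM in TSA and 69.7 ± 24.1 TPM in vehicle, and its relative BNIP3 averaged 120 ± 16.4 TPM in TSA and 69.1 ± 24.0 TPM in vehicle. BOK, the third effector-like protein of the family, went the other way from BAK1 and averaged 0.654 ± 0.246 TPM in TSA and 3.59 ± 0.668 TPM in vehicle (log2 fold change −1.47, adjusted p 0.00060, limma). BOK passed the filter through vehicle alone, and its log2 fold change was −2.33 with a pseudocount of 0.1 and −2.32 in the fit of recovered reads. The call of BNIP3 ended without vehicle library 1, vehicle library 3, TSA library 2 or TSA library 3, with an adjusted p between 0.063 and 0.069.

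Among genes whose proteins act on these 10 proteins, 3 of 15 tested were higher and 7 lower (median log2 fold change −0.36), beside 28.0% and 34.2% of all tested genes, and 3 were higher and 3 lower under a median-of-ratios scaling. DYNLL2, the dynein light chain that binds BMF, averaged 392 ± 13.1 TPM in TSA and 191 ± 19.9 TPM in vehicle (SD, n = 3 each). Among genes of proteins that act on BAD, the kinase gene AKT1 and the 14-3-3 gene YWHAE fell by 1.12 and 1.08 on the log2 scale, while the kinase gene PIM1 rose by 1.07. CASP8, picked out after its values were seen because its product cuts BID, was below the filter, at 0.667, 0.611 and 0.539 TPM in TSA and at 0, 0.0702 and 0 TPM in vehicle.

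Downstream of BAX and BAK1, 7 of 13 genes of the apoptosome and of the executioner step were higher and 2 lower, beside 28.0% and 34.2% of all tested genes, with a median log2 fold change of 0.35. Among those with a vehicle mean of 1 TPM or more, 6 of 12 were higher and 2 lower, beside 3777 and 6013 of all 16169 such genes. CASP9, the caspase that the apoptosome activates, averaged 14.8 ± 0.412 TPM in TSA and 2.60 ± 0.0579 TPM in vehicle (SD, n = 3 each). HTRA2, a mitochondrial protease, rose by 1.25 on the log2 scale, and ENDOG, a mitochondrial nuclease, fell by 1.34. The count of higher genes was 4 when vehicle library 1, vehicle library 3, TSA library 2 or TSA library 3 was left out, and 5 with no filter on low values.

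Of the transcription factors known to act on BH3-only genes, 5 of 14 were higher and 5 lower, beside 28.0% and 34.2% of all tested genes, and 4 of 13 were higher and 5 lower among those with a vehicle mean of 1 TPM or more. Their median log2 fold change was 0.035, and it was −0.21 with length and GC trends removed, −0.063 without vehicle library 1 and −0.081 without both libraries numbered 1. FOXO4 averaged 35.6 ± 0.216 TPM in TSA and 4.43 ± 1.07 TPM in vehicle, and FOXO1 averaged 5.38 ± 0.440 TPM in TSA and 0.0744 ± 0.0730 TPM in vehicle (SD, n = 3 each), passing the filter through TSA alone. DDIT3, which encodes CHOP, rose by 2.20 on the log2 scale. TP73, a relative of p53, averaged 2.88 ± 0.546 TPM in TSA and 23.8 ± 1.66 TPM in vehicle. Of 17 tested p53 target genes outside the 10, 8 were higher and 4 lower, beside the same 28.0% and 34.2% of all tested genes. Among those with a vehicle mean of 1 TPM or more, 7 of 15 were higher and 4 lower, beside 3777 and 6013 of all 16169 such genes. The median log2 fold change of the 17 was 0.43, and it was 0.69 with a pseudocount of 0.1 and 0.83 in the fit of recovered reads. FDXR and TP53INP1 rose by 1.82 and 1.92 on the log2 scale, and MDM2, the ubiquitin ligase of p53, fell by 1.77. TNFRSF10B, a death receptor gene, averaged 16.4 ± 6.53 TPM in TSA and 0.0290 ± 0.0503 TPM in vehicle (SD, n = 3 each) and passed the filter through TSA alone. The size of its fold change is set by the pseudocount, at 4.02 on log2(TPM + 1) and 7.0 on log2(TPM + 0.1).

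**Figure D4:**
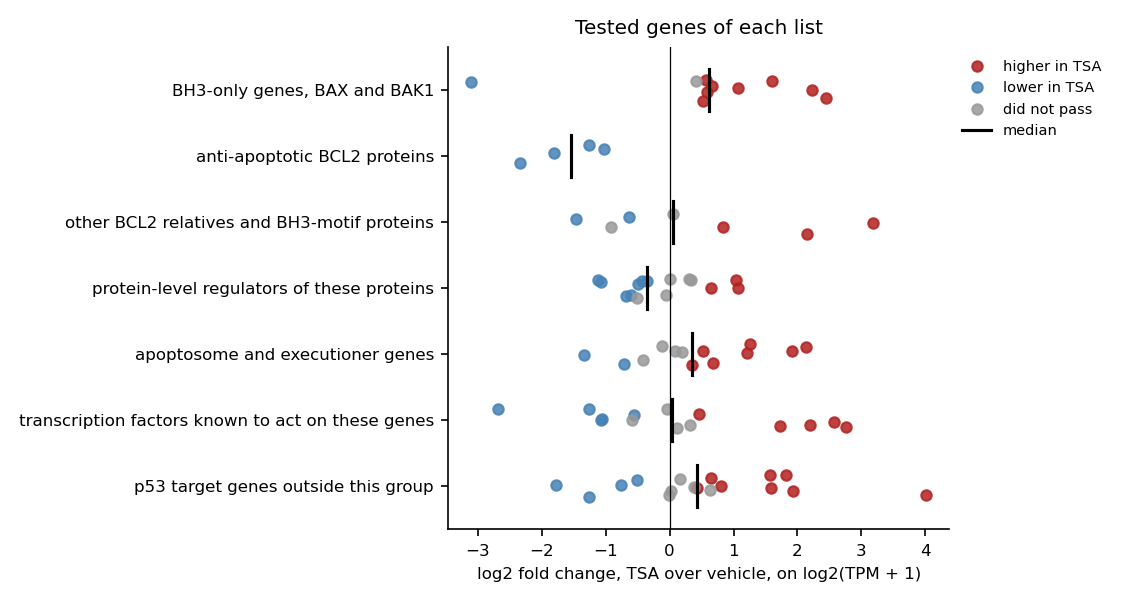
Log2 fold change on log2(TPM + 1) of the tested genes of each list, TSA over vehicle, 1 point a gene, with the median of the list as a black line. The medians run from −1.54 for the anti-apoptotic genes to 0.62 for the BH3-only genes with BAX and BAK1, whose lone point at −3.11 is BID.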

How the data were processed

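Polyadenylated RNA was sequenced with a stranded Illumina kit, per the labels. Per the submitters' processing notes the tools were STAR 2.5.3a, featureCounts, edgeR, FastQC 0.11.2 and Picard 1.127 and the build was hg19, with no roles stated. The authors deposited TPM per gene and library, on GENCODE 19 per the name of the table. Log2 fold changes and mean log2 CPM, the likelihood ratio score, and each p-value and FDR are the authors', per the file headers. A positive fold change was taken as higher in TSA, since its sign matched that of the TPM fold change below in 97.1% of tested genes.

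limma 3.58.1 (R 4.3.3, eBayes with trend) compared TSA with vehicle on log2(TPM + 1), for the 17596 genes that reached 1 TPM in 3 or more libraries. Its p-values are two-sided and were adjusted over all of these genes by the Benjamini-Hochberg method, and 0.05 was the threshold. The fit was also run on simulated reads with the same dispersion for every gene, which does not show how it behaves on these libraries. The files hold TPM, so no count test was the main test. Ratios of TPM between libraries gave whole reads (relative tolerance 1e-09) for 100% of 27644 genes, those detected in 2 or more libraries. These are the smallest whole numbers that fit, so library totals are lower bounds, and reads after PCR are not independent molecules. No library repeated another, since chi-square per degree of freedom between libraries of the same group was 7.97 to 105. Promoters are from RefSeq (GRCh38.p14), transcript lengths, GC content and overlaps from GENCODE 29, another build than hg19. Named were all 10 genes and, from each list, up to 4 called genes with the greatest change, except that some genes of the lists are not reported here. The 10 genes, the lists and the settings were chosen with earlier results of these data known. BCL2L14 was not analysed here. Figures were drawn with matplotlib 3.10.9.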

Additional observations from a re-analysis of the deposited data

How the results depend on the processing

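Other settings changed the pseudocount (0.1 or 0.5), the filter (none or 5 TPM), the scaling (median-of-ratios, quantile, or mitochondrial genes removed) and the variance model (no trend, or robust). Further ones were a block for the replicate number, each library left out, both libraries numbered 1 left out, voom on recovered reads, and length and GC trends removed. A blocked voom fit was added after the data were seen. No gene of the 10 changed direction in any of them, and BBC3, BMF, BCL2L11, BID, BIK and BAK1 kept their call in all 20. Left-out libraries gave 5 to 9 higher genes among the 10 (5 without vehicle library 1, TSA library 2 or TSA library 3, 6 without vehicle library 3) and 1 lower. No filter gave 6 higher, from the same values with more genes tested. Replicate numbers were not taken as pairs in the main fit. Deviations of libraries numbered 1, 2 and 3 correlated at 0.63, 0.59 and −0.073 between groups, and TSA library 3 correlated best with vehicle library 2 (0.38). Whether libraries of the same number shared a batch cannot be told from these values. With the replicate block 12485 genes were called in all, against 10942 without it, and 9 of the 10 were higher, with BAX at an adjusted p of 0.015, and 9 also with the blocked voom fit. Median-of-ratios scaling gave a median log2 fold change over the tested genes of 0.0085, against −0.095, and a share of higher genes among those called of 50.1%, against 45%. The blocked voom fit gave 11 higher p53 target genes, with a median log2 fold change of 0.86. Reads limit BIK and BBC3 in vehicle, with 19 to 49 a library. With 3 libraries a group an exact permutation test of a single value cannot go below p = 0.10.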
